A study of Rattus norvegicus with 2 samples.

Results

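Heterotrimeric G proteins and the RGS genes that restrain them were described in transcript models assembled from rat femur RNA. Members were the gene names of the assembled annotation that start with the prefix of an RGS protein, a G alpha, beta or gamma subunit, an adenylyl cyclase, a G protein-coupled receptor kinase or an arrestin, with a number or letters after the prefix, and transcripts were joined by gene name. The rule found 34 of 12567 named genes, with 121 of the 38614 transcripts of named genes. They comprised 9 RGS genes, 8 G alpha genes, 3 G beta genes, 4 G gamma genes, 8 adenylyl cyclases and 2 arrestins, and no receptor kinase.

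Femurs of female Wistar rats of WT genotype were taken for RNA-seq of total RNA, after both ovaries had been removed (OVX) or after a bilateral sham operation (SHAM), in which they stay in place. There was 1 labelled rat in the OVX group and 1 in the SHAM group, both at week 16, and the descriptions add the word old for OVX and young for SHAM. More rats than these were sequenced in the study, and which of them entered the transcript models is not given in the sources used here. In the study the rats served to check target genes of an RNA network for osteoporosis, Rgs4 among them. The files analysed here hold transcript positions and classes with no read counts, so depth is unknown and no rat can be given values, and OVX was not compared with SHAM.

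A receptor that binds its ligand exchanges GDP for GTP on the G alpha subunit, which then separates from the G beta and G gamma pair, and the freed parts act on enzymes such as adenylyl cyclase and phospholipase C beta. RGS proteins speed the hydrolysis of GTP by G alpha and so shorten the signal, while receptor kinases and arrestins switch off the receptor itself. In bone, the parathyroid hormone receptor of osteoblasts acts largely through the stimulatory G protein and cAMP.

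Each transcript model carried a class that compares it with the reference annotation. A full reference intron chain means that every intron of a reference transcript was assembled, a contained fragment is a model that fits inside a reference transcript, and a new junction means that at least 1 intron differs from the reference. Each model was also recorded in 1 or both of a pair of assemblies, called here the first and the second from the order of the transcript numbers. Neither assembly could be given to a group or a rat, so a gene in 1 assembly is not a gene of 1 condition.

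Among the member models, 75 of 121 (62.0%, 95% exact binomial interval 52.7% to 70.7%, counting error only) were contained fragments, against 56.1% over all named genes. The interval takes the models as independent, although the 121 come from 34 genes, so it may be too narrow. Among the 18 member models found in both assemblies the share of contained fragments was 27.8%, against 22.3% over all named genes. New junctions made up 18.2% of the member models and 25.6% of those of all named genes. At least 1 full reference intron chain was present in 15 of 34 members (44.1%), beside 38.6% of all named genes. Members were thus near the background in how often a complete model was assembled.

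Transcripts in both assemblies were found for 32 of 34 members, beside 76.5% of all named genes. This share of 94.1% was above the background in genes that also had more models each. An identical model in both was found for 14 of 34 (41.2%), beside 30.8%. Most members were therefore assembled on each occasion. Members in both assemblies without an identical model had from 6.39% (Adcy4) to 98.9% (Gnb1) of their exonic bases in both. The member count in both assemblies fell to 15 of 34 (44.1%) when contained fragments were left out, a step that left 23 members with a model. Over all named genes the same step gave 40.2%. At least 1 intron was shared by the assemblies in 30 of 34 members, beside 70.1% of the named genes that have an intron. By intron rather than by gene, 142 of 259 member introns (54.8%) were in both, close to the 53.7% over all named genes.

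The members were longer genes than most. The median span was 37.6 kb, against 14.1 kb for all named genes, the median longest model was 1278.5 bp against 1000 bp, and the median number of models was 3 against 2. With the exons of all models of a gene joined, the median length was 2124.5 bp against 1503 bp. Models lay in more than 1 separate stretch in 14 of 34 members (41.2%), beside 33.8% of all named genes. The whole set of exonic bases was found in both assemblies for 5 of 34 members (14.7%), beside 16.4% of all named genes. Under 25% of it was in both for 13 of 34 (38.2%), beside 38.6%, so both counts were near the background.

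**Figure D1:**
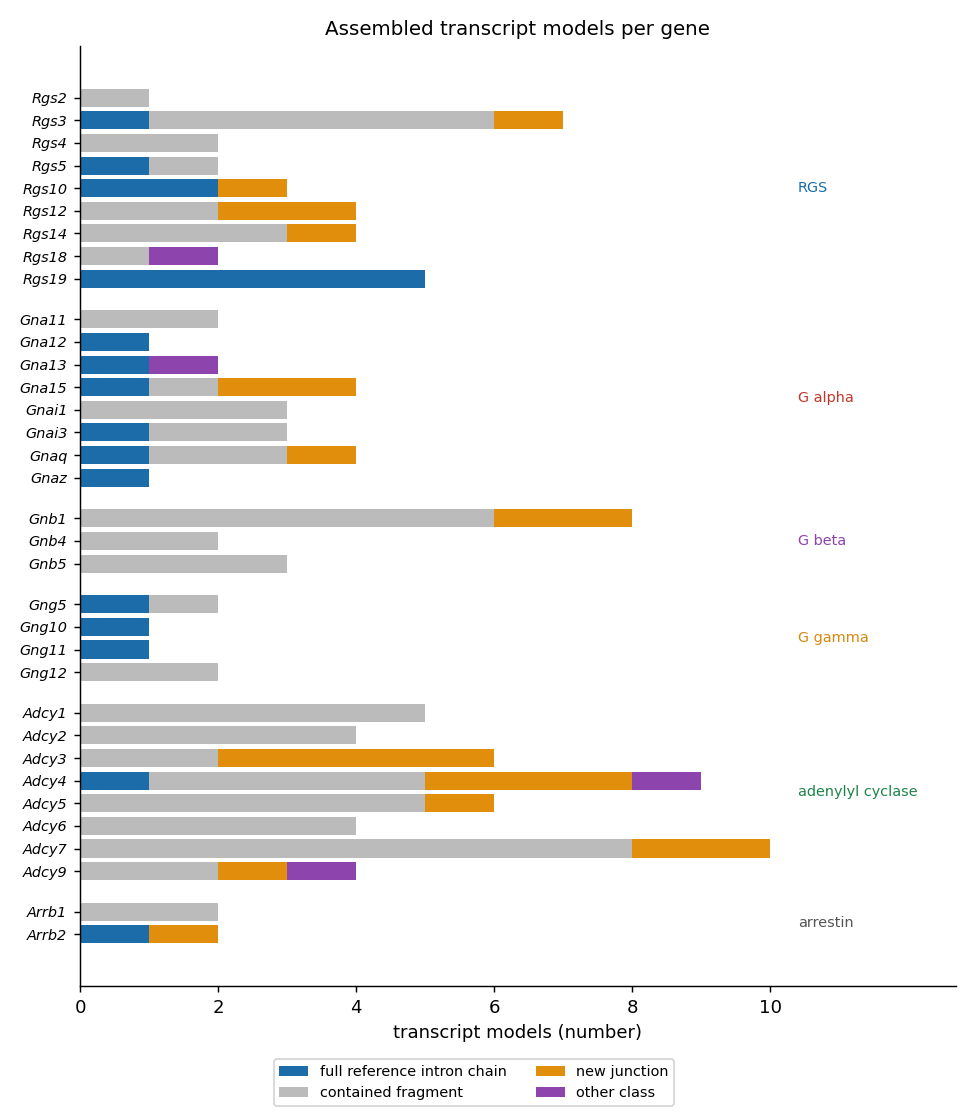
Number of transcript models per gene (horizontal axis), coloured by class against the reference annotation, with genes grouped by family. Rgs19 has 5 models that are all full chains, whereas Adcy7 has 10 models without a full chain.

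Among the RGS genes, Rgs4, which acts on the inhibitory and Gq classes of G alpha and is a target gene of the study, was assembled in 2 fragments at chr13:81604535-81608626 on the minus strand. Positions of assembled models are as the files give them. The labels name build rn4, but the sequence names and provisional gene names of the files may belong to another rat assembly, so the positions are not to be read as rn4. The first assembly held a model of 4 exons and 363 bp from the 5' side of the gene. The second assembly held a model of 3 exons and 513 bp from the 3' side. The pieces overlapped in 159 of 717 exonic bases (22.2%) and shared 1 of 4 introns. Rgs4 was thus present in both assemblies, with neither piece a full chain.

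Rgs5, which is known from pericytes and vascular smooth muscle, lay on the plus strand of the same chromosome, 52.8 kb from Rgs4, with the 3' ends of both genes facing each other. Its second-assembly model was a full chain of 5 exons and 1799 bp, and its first-assembly model was a fragment of 617 bp. All bases of the fragment were also in the longer model.

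Rgs2, an inhibitor of Gq signalling that is induced by parathyroid hormone in osteoblasts, had the shortest longest model of the members, with 1 first-assembly fragment of 3 exons and 250 bp and no model in the second. Rgs18, an RGS gene of platelets and their precursors, lay 680 kb from Rgs2 on the same strand of chromosome 13. It had a fragment of 4 exons and 1396 bp in both assemblies and a single-exon piece of 411 bp in the first. The pair therefore differed in the second assembly, where Rgs18 was present and Rgs2 was not.

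The promoters of these 4 chromosome 13 genes are shown to compare their start regions. All 4 encode small RGS proteins with little beyond the RGS domain. The genes differ in how completely they were assembled, and only Rgs4 and Rgs5 lay within 100 kb of each other. The promoter windows run from 250 bases before to 50 bases after the start in RefSeq, build GRCr8. Capitals mark matches on either strand to the motifs spelled out after the sequences. In that build the Rgs4 window is chr13:84475835-84476134 on the minus strand, that of Rgs5 chr13:84380827-84381126 on the plus strand, that of Rgs2 chr13:58352617-58352916 on the minus strand and that of Rgs18 chr13:59066293-59066592 on the minus strand.
Rgs4: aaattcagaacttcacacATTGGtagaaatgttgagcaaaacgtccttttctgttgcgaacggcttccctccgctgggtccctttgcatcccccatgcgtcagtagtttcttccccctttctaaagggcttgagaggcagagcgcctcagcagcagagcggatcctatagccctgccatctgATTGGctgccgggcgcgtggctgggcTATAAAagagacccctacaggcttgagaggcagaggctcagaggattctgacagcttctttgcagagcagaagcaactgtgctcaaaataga
Rgs5: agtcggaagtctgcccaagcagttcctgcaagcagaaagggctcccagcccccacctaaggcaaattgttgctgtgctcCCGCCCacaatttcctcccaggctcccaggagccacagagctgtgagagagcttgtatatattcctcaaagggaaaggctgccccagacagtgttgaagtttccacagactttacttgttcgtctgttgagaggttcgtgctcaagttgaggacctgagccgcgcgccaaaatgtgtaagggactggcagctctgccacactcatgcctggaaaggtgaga
Rgs2: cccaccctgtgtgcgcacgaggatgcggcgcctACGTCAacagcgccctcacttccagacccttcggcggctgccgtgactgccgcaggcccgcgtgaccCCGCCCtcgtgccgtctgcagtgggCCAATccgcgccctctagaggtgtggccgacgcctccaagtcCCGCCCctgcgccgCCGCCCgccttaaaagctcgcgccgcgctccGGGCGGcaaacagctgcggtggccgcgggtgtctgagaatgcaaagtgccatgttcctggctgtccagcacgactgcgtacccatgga
Rgs18: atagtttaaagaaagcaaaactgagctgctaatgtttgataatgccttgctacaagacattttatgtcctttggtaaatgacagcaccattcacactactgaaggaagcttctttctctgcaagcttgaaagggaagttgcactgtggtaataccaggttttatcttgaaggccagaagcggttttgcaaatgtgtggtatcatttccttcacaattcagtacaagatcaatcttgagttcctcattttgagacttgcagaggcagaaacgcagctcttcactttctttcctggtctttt

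The motifs searched on both strands were the TATA box (TATAAA), the GC box (GGGCGG), the cAMP response element (TGACGTCA), its core (TGACGT, which lies within the full element) and the CCAAT box (CCAAT). The Rgs4 window held a TATA box from -42 to -37 and CCAAT boxes, in reverse, from -232 to -228 and from -68 to -64. The Rgs2 window held 4 GC boxes, 1 CCAAT box and 1 core of the cAMP response element, the last in reverse from -217 to -212. Rgs5 had 1 GC box, and none of the letters searched were in the Rgs18 window. GC content was 69.7% for Rgs2, 54.3% for Rgs5, 52.7% for Rgs4 and 39.7% for Rgs18, with 35, 7, 10 and 2 CpG dinucleotides. The 4 windows thus had little in common in these motifs.

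Promoters were matched for 28 of the 34 members, all but Gnai3, Gnaz, Adcy3, Adcy6, Arrb1 and Arrb2. A GC box was in 17 of 28 (60.7%), against 33.1% of all 33469 promoters of the table. Those promoters outnumber the 23154 current protein-coding genes, whereas each matched member had 1 promoter, so the sets compared here are not alike. A TATA box was in 3 of 28 (10.7%, Rgs3, Rgs4 and Gnb1) against 14.2%, and a CCAAT box in 6 of 28 (21.4%) against 37.5%. The core of the cAMP response element was in 1 of 28 (3.57%, Rgs2) against 7.94%, and the full element in 0 of 28 against 1.83%. A match is a description of letters and not a binding site, and a missing match says only that these letters are not in this window.

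Rgs10 and Rgs19 were the RGS genes with a full chain in both assemblies. Rgs10, a short RGS protein of immune cells, had 2 full chains of 900 bp and 587 bp, both of them in both assemblies. Rgs19, which binds the G alpha i3 subunit and is also called GAIP, had 5 models of 1559 bp to 1753 bp, each the full chain of a different reference transcript. Of the Rgs19 models 3 were in both assemblies and 2 in the second, and 100% of the exonic bases were in both.

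Rgs3, with long and short forms that act on the inhibitory and Gq classes, had 7 models with a full chain of 7 exons and 2640 bp in the second assembly. Rgs12 and Rgs14, large scaffold proteins that bind small GTPases as well as G alpha, had 4 models each and no full chain. Their longest models had 10 exons each, with 1432 bp for Rgs12 and 1161 bp for Rgs14. Introns in both assemblies numbered 7 of 16 in Rgs3, 11 of 15 in Rgs12 and 11 of 13 in Rgs14. For the RGS genes together, 46 of 69 introns (66.7%) were in both and 4 of 9 genes had a full chain.

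G alpha subunits had a full chain in 6 of 8 genes and a median longest model of 3292.5 bp, the longest median of the families. Gna12 and Gna13, which act on the actin cytoskeleton, both had a full chain. Gna12 had a single model of 4 exons and 3341 bp, identical in both assemblies. Gna13 had the longest model of any member, 5554 bp in 3 exons, in the second assembly, while the first held 429 of its 5756 exonic bases (7.45%). The pair showed how far the same family could differ between assemblies.

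Gnaq, Gna11 and Gna15 encode the Gq class, which activates phospholipase C beta. Gnaq spanned 242 kb, the largest span of the members, and its full chain in the first assembly had 7 exons and 3336 bp, with 6 of 7 introns in both. Gna11 and Gna15 lay 7.13 kb apart on the plus strand of chromosome 7. Gna11 had 2 fragments of 517 bp and 551 bp, each identical in both assemblies, and no full chain. Gna15, the subunit of blood cells, was assembled in full in the first assembly, with 7 exons and 2168 bp, and shared 4 of 6 introns.

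The inhibitory class, which lowers cAMP, was represented by Gnai1, Gnai3 and Gnaz. Gnai3 had a full chain of 9 exons and 3249 bp in the second assembly and fragments of 921 bp and 630 bp in the first. Gnaz, which differs from the others in its resistance to pertussis toxin, had a single full chain of 3 exons and 3356 bp, identical in both. Gnai1 had 3 fragments, the longest of 420 bp, and 1 of 4 introns in both. Thus Gnai1 was in pieces where Gnai3 and Gnaz each had a complete model.

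**Figure D2:**
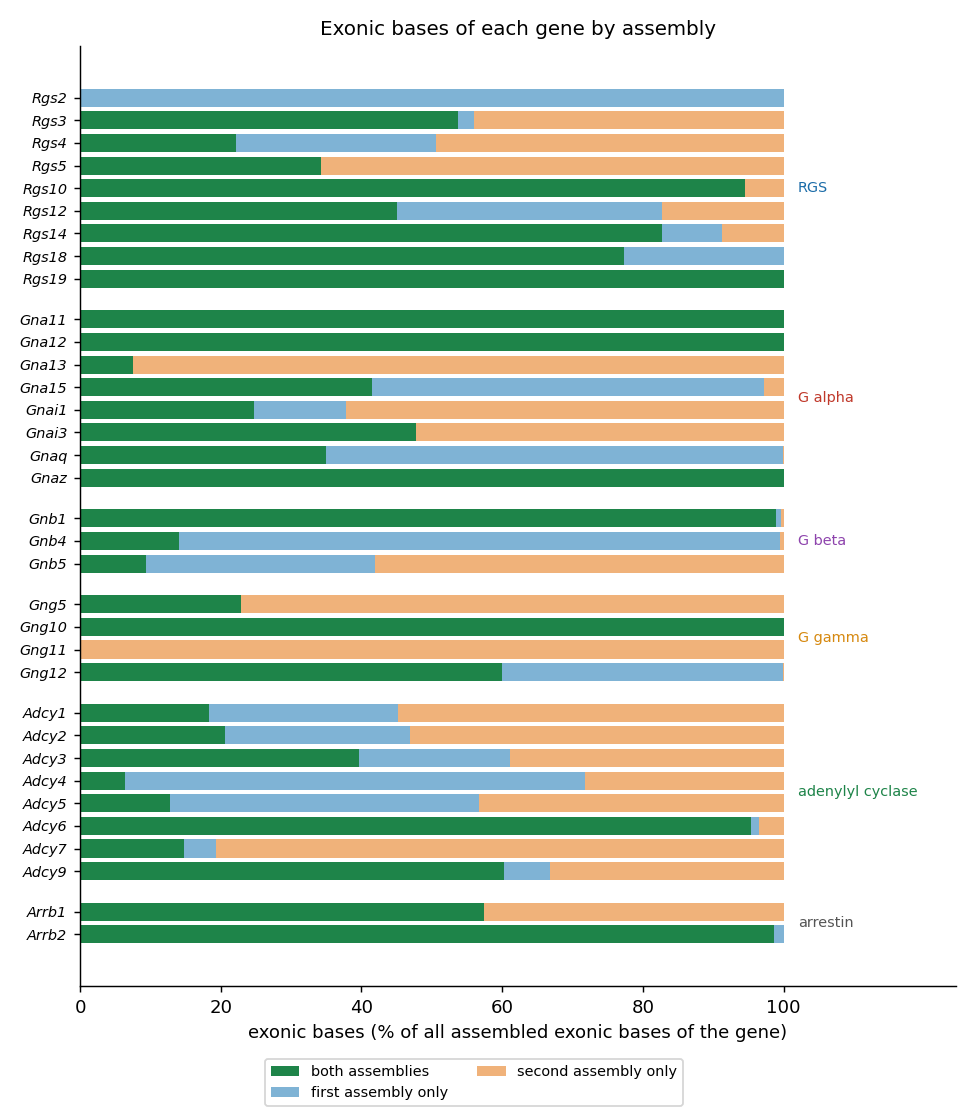
Share of each gene's assembled exonic bases (percent, horizontal axis) found in both assemblies, in the first only or in the second only, with genes grouped by family. Rgs19, Gna11, Gna12, Gnaz and Gng10 reach 100% in both, while Rgs2 lies in the first and Gng11 in the second assembly alone.

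G beta and G gamma subunits form a tight pair that anchors G alpha at the membrane. None of the 3 G beta genes had a full chain. Gnb1, the widely used beta subunit, had 8 models of up to 2458 bp, with 98.9% of exonic bases in both assemblies but no identical model. Gnb4 had a first-assembly fragment of 2414 bp and a second-assembly fragment of 354 bp, which shared 1 of 2 introns. Gnb5, the beta subunit that pairs with the RGS proteins of neurons, had 3 fragments of up to 388 bp and 0 of 5 introns in both. The G beta genes therefore ranged from nearly full to small overlap between the assemblies.

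Of the 4 G gamma genes, 3 had a full chain. Gng10 had a single model of 3 exons and 1158 bp, identical in both assemblies. Gng5 had a full chain of 1476 bp in the second and a fragment of 337 bp in the first. Gng11, a farnesylated gamma subunit found outside the retina, had a full chain of 2 exons and 929 bp in the second assembly and no model in the first. Gng12 spanned 95.1 kb and had fragments of 674 bp and 406 bp, with 1 of 3 introns in both. Gng11 and Rgs2 were the 2 members found in 1 assembly, 1 in each.

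Adenylyl cyclases, the enzymes that make cAMP, were mostly in pieces, with a full chain in 1 of 8 genes, beside 38.6% of all named genes. Contained fragments made up 34 of 48 models (70.8%), beside 56.1% over all named genes and 11 of 13 (84.6%) for the G beta genes. Models lay in more than 1 stretch in 7 of 8 cyclases, beside 33.8% of all named genes. The cyclases had a median span of 69.6 kb. Of all named genes over 30 to 100 kb, 26.9% had a full chain and 54.6% lay in more than 1 stretch. For those over 100 kb the shares were 16.8% and 68.6%. Introns in both assemblies numbered 28 of 95 (29.5%), against 114 of 164 (69.5%) for the members other than cyclases. The share was 53.7% over all named genes. Adcy6 alone gave 18 of the 28 shared introns of the cyclases. The shared part was thus smaller in the cyclases than in the other members.

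Adcy7, the cyclase typical of blood cells, had the most models of any member, 10 in 8 stretches over 56.5 kb. Of these, 8 were in the second assembly, 1 in the first and 1 in both, and 2 of 17 introns were in both. Adcy4, a cyclase activated by G beta and G gamma, had 9 models in 6 stretches and 0 of 13 introns in both. It was the 1 cyclase with a full chain, but that model of 437 bp matched a reference transcript of 2 exons, and its longest model was 467 bp. Without Adcy4, 14 members had a full chain.

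Adcy6, a cyclase inhibited by calcium, was the 1 cyclase whose models lay in 1 stretch. Its longest model had 18 exons and 3860 bp, and 18 of 20 introns were in both assemblies. Its relative Adcy5 spanned 145 kb and had 6 models of up to 899 bp, with 1 of 11 introns in both. These calcium-inhibited cyclases thus differed widely in how many introns the assemblies shared.

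Adcy1, a calmodulin-stimulated cyclase best known from brain, had 5 fragments of up to 415 bp with 2 of 9 introns in both. Adcy3, the cyclase of olfactory neurons and of primary cilia, had 6 models of up to 845 bp with 2 of 9 introns in both. Adcy2, another cyclase that the G beta and G gamma pair activates, had 4 fragments of up to 530 bp with 1 of 9 introns in both. Adcy9, a cyclase largely insensitive to forskolin, had 4 models of up to 1083 bp with 2 of 7 introns in both. All 4 of these cyclases were found in both assemblies without a full chain.

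**Figure D3:**
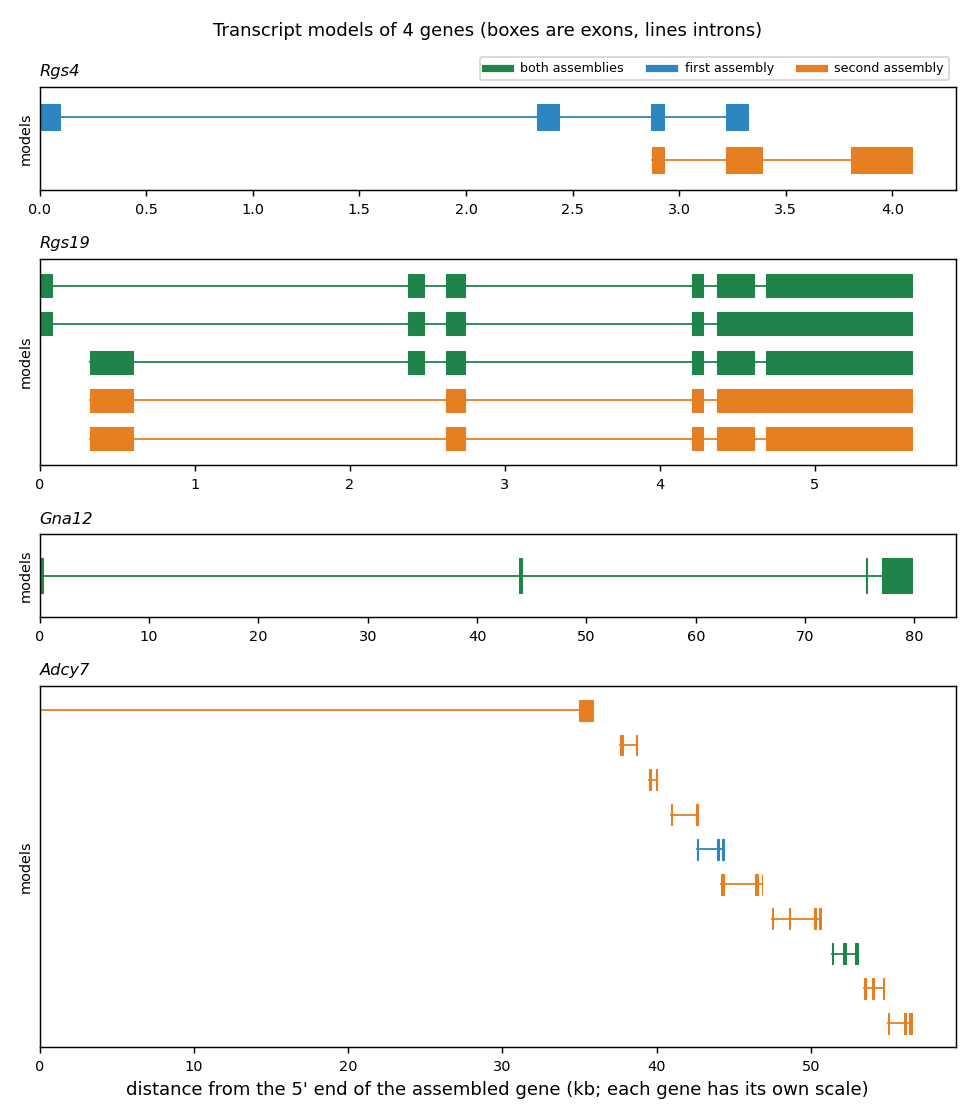
Exons (boxes) and introns (lines) of the models of 4 genes by distance from the 5' end of the assembled gene in kb, coloured by assembly, each gene on its own scale. The Rgs4 pieces overlap in 159 bp and all 5 Rgs19 models reach the 3' end. Gna12 has 1 model in both assemblies, and the 10 Adcy7 models lie in 8 separate stretches.

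Arrestins bind phosphorylated receptors and uncouple them from G proteins. Arrb2 had a full chain of 15 exons and 1751 bp in both assemblies and, in the first, a new-junction model of 16 exons and 1722 bp. Arrb1 had fragments of 13 exons and 2612 bp in the second assembly and of 12 exons and 1501 bp in the first. Together the arrestins had 24 of 28 introns (85.7%) in both.

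Of 6 current receptor kinase genes, 2 were found under older symbols and were not counted as members. The other 4, Grk1, Grk2, Grk3 and Grk4, were not found by name. Gprk6, the older symbol of Grk6, had 2 new-junction models of 16 exons, with 2825 bp in the second and 2296 bp in the first assembly, and 14 of 16 introns in both. Gprk5, the older symbol of Grk5, had 4 fragments of up to 1280 bp and 5 of 13 introns in both. Rgs9bp, which anchors a retinal RGS protein and is not itself an RGS protein, was found under an older symbol as 1 model of 714 bp. With these 3 names the list would hold 37 genes.

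Splice differences between models were found in 8 of 34 members (23.5%), beside 17.8% of all named genes. Such a difference needs more than 1 model. A single model was present in 5 of 34 members, against 3966 of 12567 named genes, and the part of this in the shares given here was not tested. A cassette exon, included in 1 model and skipped in another, was seen in 3 members (8.82%) against 5.02% of all named genes, and an intron end joined to more than 1 partner site in 7 (20.6%) against 15.1%. In Arrb1 an exon of 24 bp, the length of 8 codons, was included in the second assembly and skipped in the first. In Gnb1 an exon of 49 bp was both included and skipped in each assembly. In Rgs19 an exon of 106 bp was included in both and skipped in the second. These are differences between assembled models, with no measure of how often each form was used.

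In 3 of these 7 members the site differed within overlapping exons (8.82%), beside 7.77% of all named genes. Gnb1 had acceptors 3 bp apart and donors 8 bp apart, Adcy3 had acceptors 6 bp apart, and Adcy9 had donors 57 bp apart. In the other 4 (11.8%, beside 9.27%) the site belonged to separate exons joined to the same partner, so these are other exons and not shifted splice sites. The donors of the separate exons were 520 bp apart in Rgs19, 5853 bp in Rgs10 and 19771 bp in Rgs3, and the acceptors were 16161 bp apart in Gnaq.

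**Figure D4:**
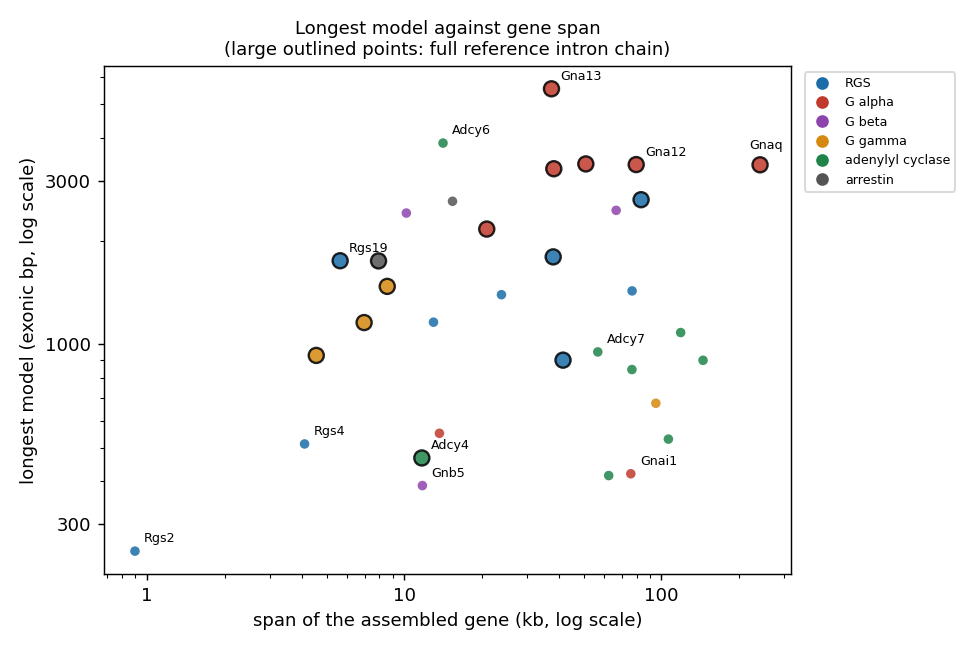
Longest model of each member (exonic bp, log scale) against the span of the assembled gene (kb, log scale), coloured by family, with large outlined points for genes with a full reference intron chain. Gnaq has a full chain over 242 kb, while Rgs2 has 250 bp over 0.896 kb.

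Gene span was set beside completeness. Over all named genes, a full chain was present in 49.8% of those up to 10 kb, 37.9% of those over 10 to 30 kb, 26.9% of those over 30 to 100 kb and 16.8% of those over 100 kb. For members the counts were 5 of 7, 2 of 9, 7 of 14 and 1 of 4. Members thus had fewer full chains than the background share in the 10 to 30 kb bin and more in the other bins, on counts too small to give an order.

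**Figure D5:**
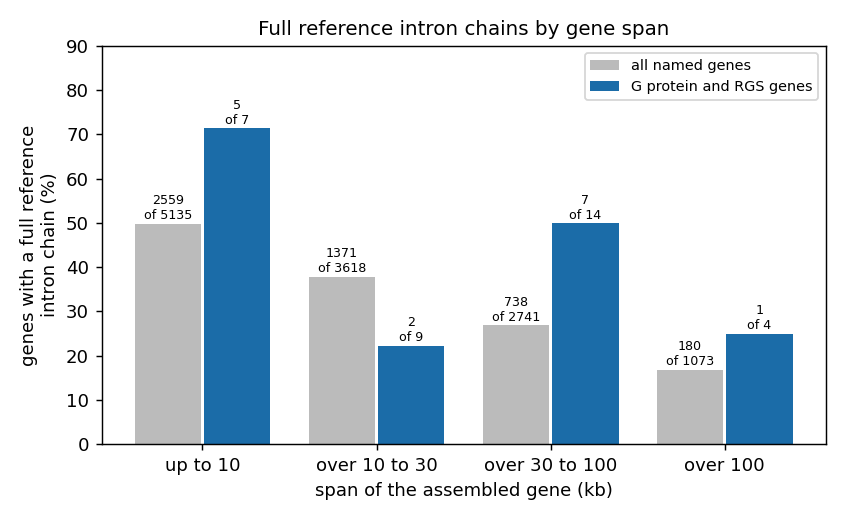
Genes with a full reference intron chain (percent, vertical axis) by span of the assembled gene in kb, for all named genes (grey) and members (blue), with the counts above the bars. The grey bars fall from 49.8% to 16.8%, and the blue bars stand for 7, 9, 14 and 4 genes.

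The assemblies also differed in how much of the members they held. The first assembly held 69.1% of the members' exonic bases and the second 82.8%, whereas over all named genes the first held 81.6% and the second 73.6%. More bases were in the second assembly for 18 members, more in the first for 11, and equal numbers for 5. Gna13 and Adcy7 weighed on these shares, and without both the first held 77.2% and the second 80.7%. Depth of either assembly is unknown, and its part in the difference was not tested.

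Family genes of the current GRCr8 annotation that the rule did not find were looked for by their neighbours. Of 78 current protein-coding genes of these families, 34 (43.6%) were found by symbol and 3 by an older symbol, while over all protein-coding genes 5336 of 23154 (23.0%) were found by symbol. Of the named genes, 4469 (35.6%) carried a provisional name starting with rCG, so a family gene can be present without its symbol. Of the 41 genes not found, 40 could be placed between neighbours that were in the files, and for 32 of these the interval held an assembled locus. These intervals hold a median of 5.5 and up to 75 current genes, and many of their loci carry the names of other genes, so the count does not show that the family genes were assembled.

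Gnai2 and Gnas are of interest here, as the main inhibitory and the stimulatory G alpha of many cells. Gnai2 is the only current gene between Sema3b and Slc38a3, and that interval held 2 loci, 1 unnamed and rCG_26094 at chr8:107594935-107615367 on the minus strand, with 3 transcripts, 1 full chain and a longest model of 9 exons and 2248 bp. Gnas is 1 of 2 current genes between Npepl1 and Ctsz, and that interval held 2 loci, 1 unnamed and rCG_40874 at chr3:162292262-162311413 on the plus strand, with 4 transcripts, no full chain and a longest model of 13 exons and 1489 bp. Whether these loci are Gnai2 and Gnas was not tested. For 8 genes no locus was assembled in the interval, among them Rgs1, Rgs13 and Rgs21, which share the interval between Rgs2 and Rgs18, and Rgs9 between Axin2 and Gna13.

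Other genes of the pathway were taken from a list of 65 genes, of which 41 were found by a current or older symbol, 14 with a full chain (34.1%) and 31 in both assemblies (75.6%). Both shares were close to the 38.6% and 76.5% of all named genes. Their median was 3 models and a longest model of 1718 bp. Among receptors 10 of 25 were found. The parathyroid hormone receptor, named Pthr1 in the files, had 3 models with a full chain of 2194 bp and 7 introns in both. Cxcr4, the chemokine receptor of marrow cells, and Edg1, the older symbol of the sphingosine phosphate receptor S1pr1, each had 1 full chain identical in both assemblies. Calcr and Casr, the receptors of calcitonin and calcium, were not found by name.

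Other groups of the list act with or downstream of the G proteins. Protein kinase A and cAMP sensors were found in 10 of 11, with a full chain in 5. Among them were Prkaca and Prkar1a, a catalytic and a regulatory subunit of protein kinase A, with 1 identical model each of 1271 bp and 3335 bp. Akap13 is also counted among the 5, but its full chain had 338 bp while its longest model had 7270 bp. Phospholipase C beta and the inositol trisphosphate receptors were found in 6 of 7, with 0 full chains and all 6 in both assemblies. The phosphodiesterases that break down cAMP were found in 8 of 11, with 0 full chains, 5 in both and 0 with an identical model. G alpha helpers, such as the chaperone Ric8a, were found in 5 of 8 with 2 full chains.

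The labelled tissue was checked by cell markers, counted as found by name and not by level. Osteoblast markers were found in 8 of 8 (6 with a full chain), osteocyte markers in 4 of 6 (Mepe and Fgf23 not found) and osteoclast markers in 4 of 7 (Calcr, Dcstamp and Atp6v0d2 not found). Endothelial markers were found in 4 of 4, skeletal muscle in 4 of 7, marrow blood cells in 3 of 9 and adipocyte in 2 of 4. The blood markers Ptprc, Elane, Hbb, Hba1, Cd79a and Lyz2 were not found. Neuron and liver markers were found in 0 of 5 and 0 of 4. Names that were not found may be hidden behind provisional or older ones. Which cells of the femur gave the G protein and RGS transcripts was not tested.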

How the data were processed

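Femur RNA was sequenced by the authors after libraries were made with a SMARTER mRNA kit. The submitters' processing notes name FastQC, HISAT2, StringTie, featureCounts and build rn4, with no versions given in the sources used here. The deposited files give positions and attributes of merged transcript models, beside 1507 listed new genes, and their sequence names were not matched to a genome. The name of the annotation carries the letters SD, which no source used here explains, while the labels give the strain as Wistar. Chromosomes were assigned from 5339 genes with a current symbol, of which 99.1% fell on 1 main chromosome per sequence.

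Members and lists were chosen with earlier results of these data known. All 34 members are named. Transcripts were joined by gene name after removal of the endings for predicted and mapped genes. On each of the 21 sequences the transcript numbers run through both strands once and then again, which separates the assemblies. Introns and exonic bases were compared by position, pairs of members within 100 kb and new genes within 5 kb were listed, and promoters were matched by symbol. Neighbour order came from GRCr8. The Pthr1 name also belongs to Pth as an older name and was settled by chromosome. Counts were described beside all named genes, without tests, since the assemblies carry no group. The alternatives left out fragments, single-exon models or names, or used other length measures. Python 3.11.15, numpy 2.4.6, scipy 1.17.1 and matplotlib 3.10.9 were used. No protein lengths were used here, so models were not compared with coding length. Some genes of the pathway and marker lists are not reported here by name.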

Additional observations from a re-analysis of the deposited data

Results flagged for a closer look

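The list of new genes, which the comparisons of members do not use, held 4 entries within 5 kb of a member and 0 that overlap one. All 4 had 1 exon and lay beyond the 3' end of 1 of 2 members. Near Adcy9, XLOC_009837 was 3036 bp away on the same strand with 349 bp in the second assembly, and XLOC_010560 was 3004 bp away on the opposite strand with 269 bp in the first. Near Arrb1, XLOC_001548 and XLOC_001549 were 1634 bp and 2962 bp away on the opposite strand, with 1033 bp and 507 bp, both in the first assembly. Whether they belong to the transcripts of these genes was not tested.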

How the results depend on the processing

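Of the alternative values computed, 2 left and 16 stayed within the set range of the reported value (within 1.5 times for counts, within the 95% interval for shares and medians). Members in both assemblies went from 32 to 15 without contained fragments, a step that left 23 members with any model. The share of contained fragments went from 62.0% to 27.8% when models in 1 assembly were left out, which kept 18 models, 5 of them fragments; the cause was not tested. Leaving out names outside the protein families changed nothing, since the rule found no such name. Alternatives chosen after seeing the data gave 120 member introns in both assemblies without new-junction models and 161 with the 3 older symbols added (142 reported), and 14 full chains without Adcy4. The coding-length result and its 2 alternatives were not run, because no protein table was used here. No paired analysis was possible because the deposited values belong to no sample. Depth is unknown, so a missing or broken model cannot be told apart from low coverage.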
